A study of Mus musculus with 2 samples.

Results

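A set of 10 genes of the tumour mesenchyme was followed through single-cell RNA sequencing of mouse pancreatic tumours: Acta2, Tagln, Postn, Tnc, Thbs2, Cthrc1, Lrrc15, Fap, Tbx15 and Akr1c18. These 10 of the 32285 genes listed were taken by symbol, and their unique molecular identifiers (UMIs, each standing for 1 captured transcript) were counted in fibroblast-like, mesothelial-like and pericyte/smooth muscle-like cells of each library. Tbx15 and Lrrc15 had been picked because they were among the largest falls in knockout fibroblasts, and the whole set was assembled with results of these data known. The differences between libraries in these cells are therefore given as descriptions, without a test.

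Tumours were grown from KPC cells, a mouse pancreatic cancer line, implanted into the pancreas and taken on day 21. The control group was Porcn fl/fl littermates, which carry the floxed allele and no Cre, and the knockout group was Csf1r-Cre;Porcn fl/fl mice, in which Cre is driven in macrophages and related myeloid cells. Porcn encodes the acyltransferase that attaches a lipid to Wnt ligands, a step their release requires, and the study asked how the tumour microenvironment differs when myeloid Wnt secretion is lost. Neither the fibroblasts nor the implanted cancer cells are the target of this Cre. Tumours of 5 mice per genotype were pooled into 1 library before capture, so each genotype has 1 library, the spread between mice is not visible, and every interval below covers counting error only.

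In a pancreatic tumour, fibroblasts lay down the collagen-rich stroma. Those that take on myofibroblast features assemble actin bundles containing smooth muscle actin and secrete periostin, tenascin and other matricellular proteins, and transforming growth factor beta is a known inducer of this state. Other pancreatic tumour fibroblasts instead make cytokines or express antigen-presentation genes, and the latter have been linked to a mesothelial origin. Vascular pericytes and smooth muscle cells share the contractile genes, so a contractile transcript does not by itself mark a fibroblast.

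The deposited matrices held 13766 control and 12251 knockout barcodes, of which 11516 and 10467 were kept, with medians of 12167.5 and 10109 UMIs per cell. The libraries shared 46 barcode sequences, 0.334% and 0.375% of their barcodes. Porcn had 12 control and 4 knockout UMIs in monocyte/macrophage-like cells, or 4.13 and 1.29 CPM (UMIs per 1000000 UMIs of the class), with overlapping 95% intervals of 2.13 to 7.21 and 0.352 to 3.30. In neutrophil-like cells it was at 5.49 and 5.24 CPM, on 7 and 3 UMIs. Fibroblast-like cells had more Porcn in the knockout library, 6.12 CPM (4.53 to 8.09) against 14.95 CPM (12.2 to 18.2), from 49 and 100 UMIs. Epithelial/tumour-like cells had less, 7.42 against 5.06 CPM. The cause of these differences was not tested. Fibroblast-like cells numbered 572 (4.97% of kept cells) in the control and 708 (6.76%) in the knockout library, with medians of 11531 and 8962.5 UMIs. All 12 fibroblast markers, such as Pdgfra, Col1a1 and Dcn, had UMIs there in both libraries. Mesothelial-like cells numbered 38 and 30, and all 10 of their markers, such as Msln and Upk3b, were seen in both. Pericyte/smooth muscle-like cells numbered 53 and 9, again with all 10 markers, such as Rgs5 and Notch3. No member of the gene set was used to form or name these classes.

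In the fibroblast-like cells, 7 of the 10 genes were at least 2-fold lower in the knockout library (Acta2, Tagln, Tnc, Cthrc1, Lrrc15, Tbx15 and Akr1c18), 1 was at least 2-fold higher (Fap), and Postn and Thbs2 were within 2-fold. Among all 13053 genes with at least 20 UMIs in these cells, 6.04% were called lower and 8.39% higher by the same rule, and the median log2 ratio over them was 0.13. The members were chosen on this contrast, so nothing is read from the excess of lower calls. In the knockout library Postn, at 612 CPM, Thbs2, at 236 CPM, and Cthrc1 and Fap, at 122 CPM each, had the highest levels of the 10. The plot of levels by cell class shows the 10 genes side by side.

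**Figure D1:**
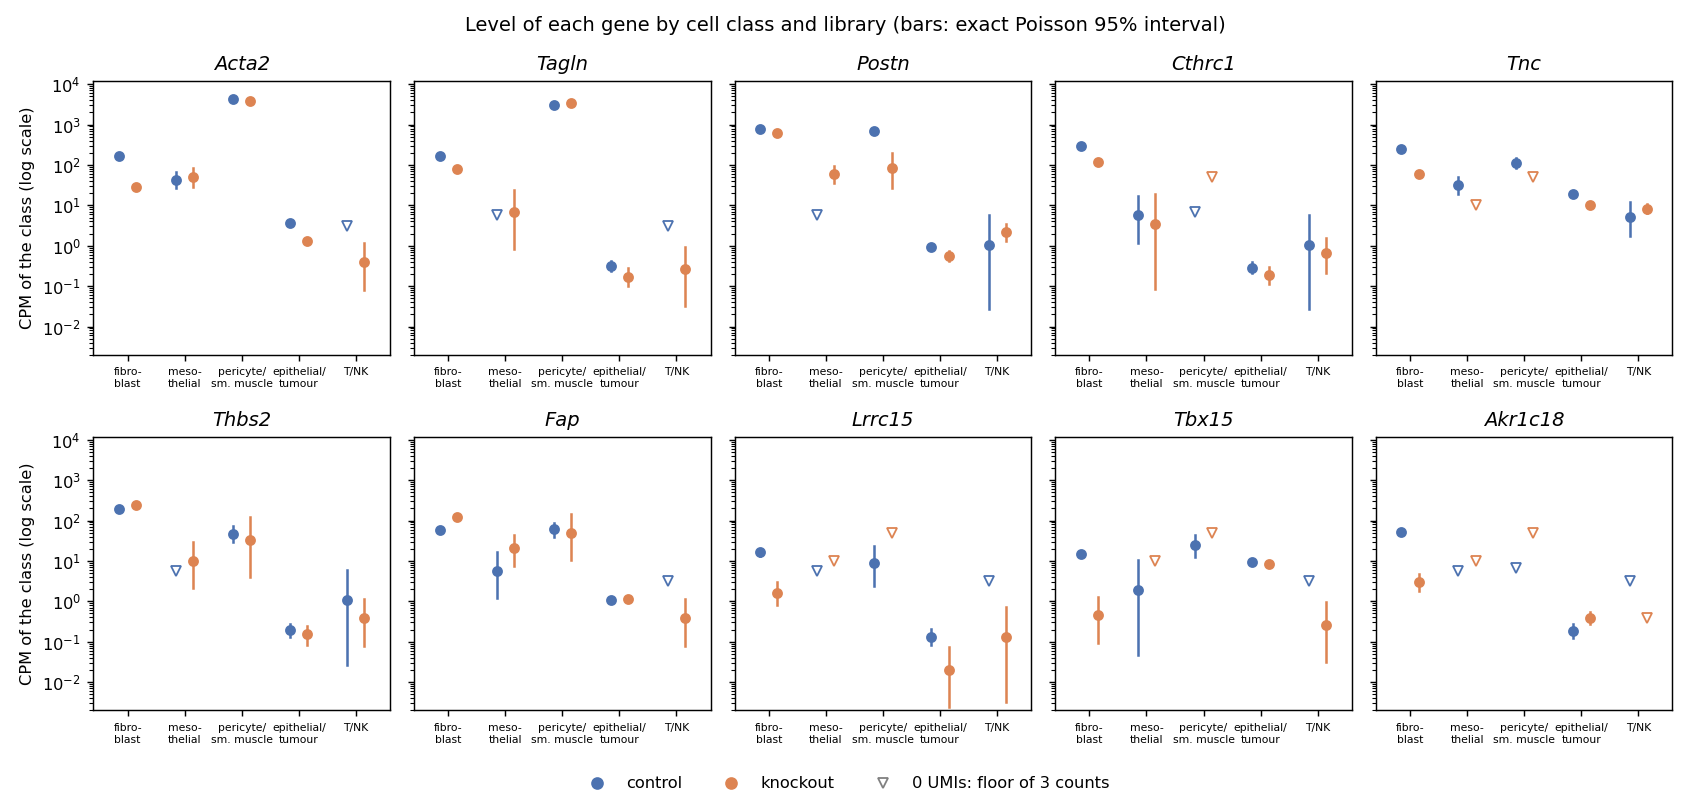
Level of each of the 10 genes, in CPM of the class on a log scale, in 5 cell classes of the control (blue) and knockout (orange) library. Points are 1 pooled library each, bars are exact Poisson 95% intervals, and open triangles give the floor of 3 counts where 0 UMIs were counted. In fibroblast-like cells Tbx15, Akr1c18 and Lrrc15 have the widest gaps, while the Acta2 and Tagln levels in pericyte/smooth muscle-like cells lie close together.

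Of the contractile genes, Acta2 (ENSMUSG00000035783, chr19:34241090-34255590, minus strand, GRCm38) encodes smooth muscle alpha-actin, the usual myofibroblast marker. Fibroblast-like cells held 1324 Acta2 UMIs in the control and 195 in the knockout library, 165 CPM (157 to 175) and 29.2 CPM (25.2 to 33.6). The control library was the high one and the intervals did not overlap, with a ratio of 0.176 (0.151 to 0.205). Tagln (ENSMUSG00000032085, chr9:45929619-45936058, minus strand) encodes transgelin, an actin-binding protein of smooth muscle and myofibroblasts. It had 1336 and 535 UMIs, 167 CPM (158 to 176) and 80.0 CPM (73.4 to 87.1), a ratio of 0.479 (0.433 to 0.530). This call sat at the 2-fold limit, with a log2 ratio of -1.06, and it was lost under 7 of 20 alternatives. Among these were averaging cells instead of summing them (-0.71), leaving out cells with epithelial or leukocyte transcripts (-0.25) and leaving out subclusters 3, 6 and 11, described below (-0.28). Keeping the called doublets moved it just inside the limit. A single knockout cell held 165 of the 535 Tagln UMIs. In the control library the highest cells held 221 and 206 of the 1336, and the top 5 cells held 47.5%.

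Both contractile genes were far from evenly spread over fibroblasts. Acta2 was seen in 157 of 572 control and 71 of 708 knockout fibroblast-like cells, and Tagln in 115 and 76. In the control library 80 cells had both, 51.0% of the Acta2 cells and 69.6% of the Tagln cells. After each cell was thinned to 2000 UMIs, Acta2 was seen in 12.2% of control (9.58% to 15.2%) and 3.71% of knockout (2.42% to 5.43%) fibroblast-like cells. Thinned T/NK-like cells, which should lack the gene, had it in 0 of 173 control cells, which allows a share of up to 1.73%, and in 0.0637% of knockout cells. The fibroblast shares were above this background in both libraries. Thinning left out 23 control and 35 knockout fibroblast-like cells with fewer UMIs.

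The start of Acta2 holds a pair of sequences close to the CArG box, the site bound by serum response factor that drives actin genes. A CArG box is CC, 6 bases that are A or T, and GG, and the search allowed up to 1 C or G among the 6. They are shown because Acta2 is the standard reporter of the myofibroblast state, with 10 bases before and after each match and the match in capitals. Both come from the RefSeq promoter table (GRCm38.p6, minus strand, chr19:34255438-34255467 and chr19:34255388-34255417), and the matches begin 84 and 34 bases before the RefSeq start. In GENCODE M21 Acta2 starts further upstream, so 217 of the 250 bases of this window, both elements included, lie in an annotated exon:
Acta2 upstream element: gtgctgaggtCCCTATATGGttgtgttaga
Acta2 downstream element: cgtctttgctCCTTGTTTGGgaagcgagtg
Of 32851 promoter windows of 250 bases searched on both strands, 8.59% held at least 1 such match and 0.67% held 2 or more. The strict CArG box was found in 1.47% of the windows and not in that of Acta2. A match is a description of the letters and says nothing of binding in these cells.

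Postn, Tnc, Cthrc1 and Thbs2 encode secreted proteins of the matrix. Postn (ENSMUSG00000027750, chr3:54361109-54391037, plus strand) encodes periostin, which binds collagen and integrins, and it was the most abundant of the 10 in UMIs. It had 6178 control and 4095 knockout UMIs, 772 CPM (753 to 791) and 612 CPM (594 to 631), a ratio of 0.793 (0.763 to 0.826). The control library was higher, but by less than the 2-fold limit. In thinned cells Postn was seen in 44.1% of control and 50.7% of knockout fibroblast-like cells, so the share of cells and the level pointed in opposite directions and no order was read from the share.

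Tnc (ENSMUSG00000028364, chr4:63959785-64047015, minus strand) encodes tenascin C, a glycoprotein of remodelled and wounded matrix. It had 1998 and 407 UMIs, 250 CPM (239 to 261) and 60.9 CPM (55.1 to 67.1), a ratio of 0.244 (0.219 to 0.271). The knockout value was carried by few cells, since 1 cell held 185 of the 407 UMIs. With each gene's highest cell left out of each library, its log2 ratio went from -2.03 to -2.78. In thinned cells 10.2% of control and 3.57% of knockout fibroblast-like cells had a Tnc UMI, against 1.16% and 1.27% of T/NK-like cells.

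Cthrc1 (ENSMUSG00000054196, chr15:39076932-39087121, plus strand) encodes a secreted protein with a collagen-like repeat that is made by activated fibroblasts. It had 2386 and 816 UMIs, 298 CPM (286 to 310) and 122 CPM (114 to 131), a ratio of 0.409 (0.378 to 0.443). Thbs2 (ENSMUSG00000023885, chr17:14665500-14694235, minus strand) encodes thrombospondin 2, a matricellular glycoprotein. It had 1565 and 1580 UMIs, 195 CPM (186 to 205) and 236 CPM (225 to 248), a ratio of 1.21 (1.13 to 1.30). Thbs2 was thus slightly higher in the knockout library and far from the 2-fold limit. Its sign changed under some alternatives, with a log2 ratio of 0.27 over all fibroblast-like cells and -0.28 without subcluster 3, a group of cells described below.

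Lrrc15 and Fap encode membrane proteins. Lrrc15 (ENSMUSG00000052316, chr16:30269302-30283256, minus strand) encodes a leucine-rich repeat protein known as a marker of transforming growth factor beta-driven fibroblasts in pancreatic cancer. It had 130 control and 11 knockout UMIs, 16.2 CPM (13.6 to 19.3) and 1.64 CPM (0.821 to 2.94), a ratio of 0.101 (0.0493 to 0.187). It was seen in 39 of 572 control and 7 of 708 knockout fibroblast-like cells, and no knockout cell had more than 2 UMIs. Fap (ENSMUSG00000000392, chr2:62500943-62574075, minus strand) encodes fibroblast activation protein, a serine protease of the cell surface. It went the other way, with 463 and 818 UMIs, 57.8 CPM (52.7 to 63.4) and 122 CPM (114 to 131), a ratio of 2.12 (1.88 to 2.38). The interval of this ratio spans the 2-fold limit, and the call was lost under 5 of 20 alternatives, with log2 ratios between 0.59 and 0.97 against 1.08 over all fibroblast-like cells. In thinned cells Fap was seen in 11.7% of control (9.09% to 14.6%) and 18.1% of knockout (15.3% to 21.2%) fibroblast-like cells.

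Tbx15 and Akr1c18 are the members with no matrix or contractile role. Tbx15 (ENSMUSG00000027868, chr3:99240381-99354259, plus strand) encodes a T-box transcription factor of limb, skin and skeletal mesenchyme. Fibroblast-like cells had 120 control and 3 knockout UMIs, 14.99 CPM (12.4 to 17.9) and 0.449 CPM (0.0925 to 1.31), a ratio of 0.0299 (0.00609 to 0.0896). Akr1c18 (ENSMUSG00000021214, chr13:4132615-4150654, minus strand) encodes 20-alpha-hydroxysteroid dehydrogenase, the enzyme that inactivates progesterone. It had 410 and 20 UMIs, 51.2 CPM (46.4 to 56.4) and 2.99 CPM (1.83 to 4.62), a ratio of 0.0584 (0.0353 to 0.0914). The control value of Akr1c18 came from few cells: 38 cells had a UMI, 1 cell held 143 of the 410, and the top 5 cells held 69.8%. Without the highest cell of each library the log2 ratio was -4.48, against -4.03 with it. Tbx15 was more even, with 66 positive control cells and at most 7 UMIs in 1 cell. In thinned fibroblast-like cells Tbx15 was seen in 2.91% of the control and in 0 of 673 knockout cells, which allows a share of up to 0.446%.

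The 10 genes are all protein-coding in GENCODE M21. Tagln overlaps Pcsk7 and Gm48529 on the other strand, Tnc overlaps 8030451A03Rik and Tbx15 overlaps Gm43120. The strand setting of the counting is not given in the sources used here.

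Fibroblast-like cells fell into 8 subclusters, numbered as in the clustering of all mesenchymal cells, and their shares differed between the libraries. Subcluster 6, led by Apod, Mmp3, Angptl1, Ccl8 and Prg4, held 110 control cells (19.2% of fibroblast-like cells, 16.1% to 22.7%) and 0 of 708 knockout cells, which allows a share of up to 0.424%. Subcluster 3, led by Slpi, Clca3a2, Clu and Saa3, held 169 control and 19 knockout cells, 29.5% and 2.68%. Subcluster 11, led by Spp1, Serpinb2, Timp1 and Inhba, held 28 and 2 cells, 4.90% and 0.282%. Subclusters 1, 2 and 5 were the main knockout groups, with 35.0%, 29.5% and 16.0% of cells, against 15.9%, 11.4% and 5.24% in the control. Subcluster 1 was led by Cpxm2, Igfbp3, Itgbl1 and Aspn, subcluster 2 by Chrm3, Rspo3 and Cxcl14, and subcluster 5 by Sema3c, Opcml and Tek. With 1 library per genotype, a subcluster found in 1 library only may be a property of that library, and genotype and library cannot be told apart. Under 7 other filter and clustering settings, 99 to 110 of the 110 cells of subcluster 6 stayed together, in a group with 0 to 2 knockout cells.

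**Figure D2:**
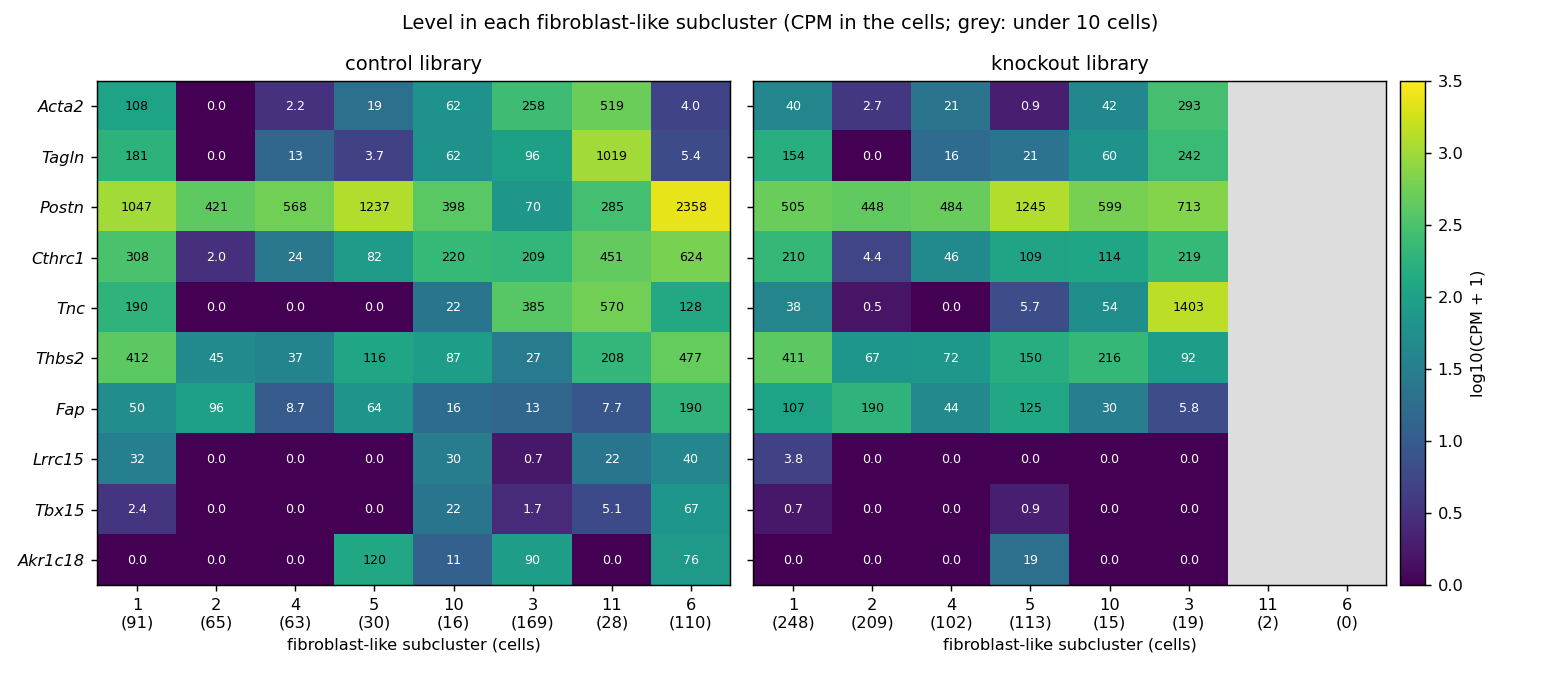
Level of each of the 10 genes (rows, CPM printed in the cells, colour log10 of CPM + 1) in the 8 fibroblast-like subclusters (columns, with cell numbers) of the control (left) and knockout (right) library. Grey columns had under 10 cells. Tbx15 is highest in control subcluster 6 and Acta2 and Tagln in control subcluster 11, while Lrrc15 and Tbx15 are at 3.81 CPM or less in every knockout column and Akr1c18 is above 0 there in subcluster 5 alone.

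The members split by where they sat in the control fibroblasts. Tbx15 was at 67.5 CPM (54.9 to 82.1) in subcluster 6, where 53 of 110 cells had a UMI, and this subcluster held 83.3% of its fibroblast UMIs. In control subclusters 1 to 5 it lay between 0 and 2.39 CPM, and in subcluster 11 at 5.14 CPM. Subcluster 10 was next after subcluster 6, at 21.7 CPM (9.36 to 42.7) on 8 UMIs in 5 of 16 cells. Subcluster 10 was led by Ube2c, Ccl5, Top2a and Mki67 and had a mixed signal. Epithelial markers summed to 1431 CPM in its control cells, against 85.0 to 130 CPM in the other control fibroblast-like subclusters. T/NK markers summed to 1288 CPM in its knockout cells, against at most 15.8 CPM in the other knockout ones. Subcluster 6 also held 60.9% of the control Fap UMIs (190 CPM), 56.5% of Postn (2358 CPM), 46.2% of Lrrc15 (40.5 CPM), 45.2% of Thbs2 (477 CPM), 38.8% of Cthrc1 (624 CPM) and 27.3% of Akr1c18 (75.6 CPM), from 18.5% of all fibroblast UMIs. It was low in contractile transcripts, with 6 Acta2 and 8 Tagln UMIs in all, 4.05 and 5.40 CPM. The control fibroblast subcluster richest in Postn, Tbx15 and Fap was thus not one rich in Acta2. In the control library 11 cells had both Acta2 and Tbx15, 7.01% of the 157 Acta2 cells and 16.7% of the 66 Tbx15 cells, whereas 19 cells had both Tbx15 and Lrrc15, 28.8% and 48.7%.

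Control Acta2 and Tnc UMIs sat mostly in subclusters 3 and 11, and Tagln UMIs mostly in subcluster 11. Subcluster 3 held 56.6% of control Acta2 UMIs (258 CPM), 55.9% of Tnc (385 CPM) and 63.9% of Akr1c18 (90.3 CPM), from 36.3% of all fibroblast UMIs. All 262 of these Akr1c18 UMIs were in 9 of its 169 cells. Its share of Tagln was lower, 20.8% (95.8 CPM), and control subcluster 1 had a higher Tagln level, 181 CPM. Subcluster 11 held 59.4% of Tagln UMIs (1019 CPM), 30.5% of Acta2 (519 CPM) and 22.2% of Tnc (570 CPM), from 9.72% of all fibroblast UMIs. Of its 793 control Tagln UMIs, the highest cells held 221 and 206. Markers of other mesenchymal cells differed in level among the subclusters. In control subcluster 3 all 10 mesothelial markers had UMIs, summing to 615 CPM against 5176 CPM in control mesothelial-like cells. The sum was 135 to 341 CPM in control subclusters 1, 2, 4, 5, 10 and 11, and 18.2 CPM in subcluster 6. In control subcluster 11 the pericyte/smooth muscle markers summed to 938 CPM over 7 of 10 genes, against 13377 CPM in control pericyte/smooth muscle-like cells and 89.9 to 188 CPM in control subclusters 3 and 6. The part of these cells in the Acta2, Tagln and Tnc differences was not tested.

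**Figure D3:**
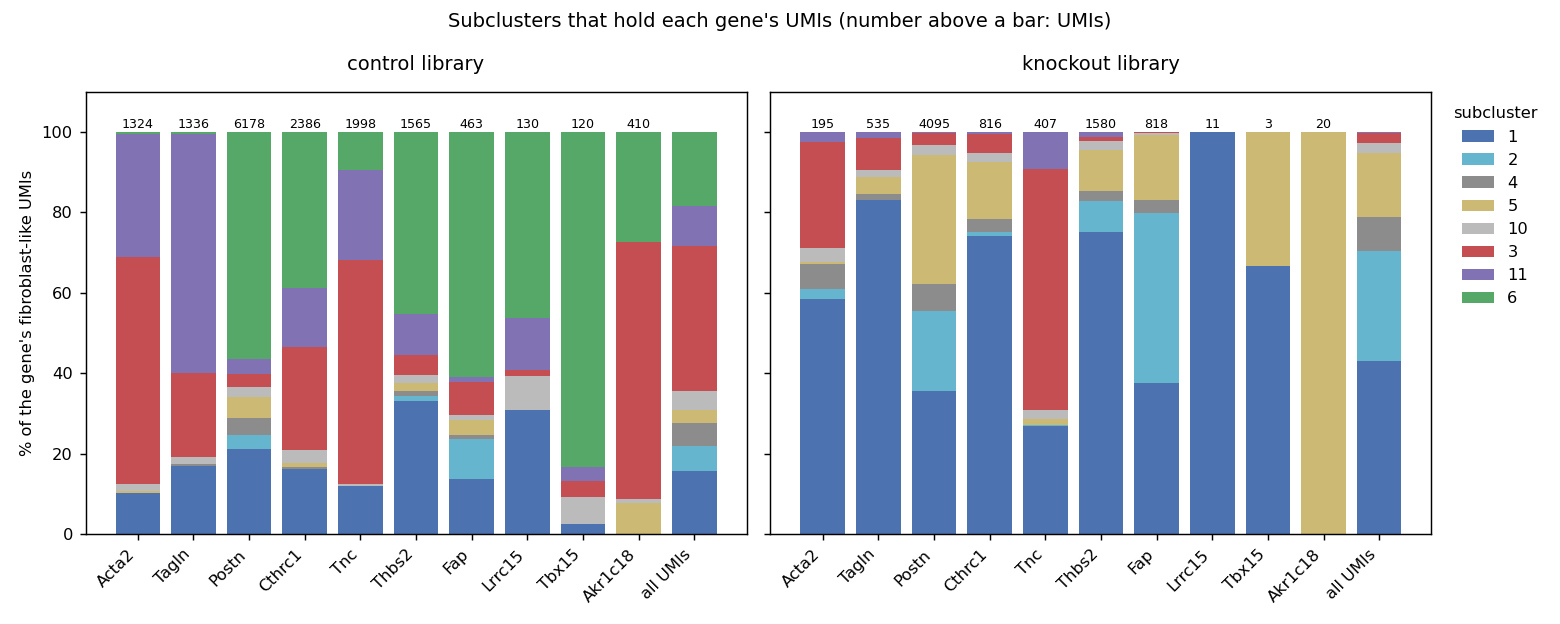
Share of each gene's fibroblast UMIs held by each subcluster (stacked bars, percent, total UMIs above the bar) in the control (left) and knockout (right) library, with the share of all UMIs as the last bar. Subclusters 3, 11 and 6 hold most of the control Acta2, Tagln, Tnc and Tbx15 UMIs and have few knockout cells or none.

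The comparison was repeated in the 6 subclusters with at least 10 cells in each library (1, 2, 3, 4, 5 and 10), which leaves out subclusters 6 and 11. Their UMIs were first summed at their own shares, and each gene's level was then averaged over them with the same weights in both libraries. The weight of a subcluster was the mean of its UMI shares in both libraries. Below, equal weights and weighted alike mean the same weights in both libraries, not the same weight for every subcluster. Leaving out subclusters 6 and 11 was enough to bring Tagln (93.1 and 79.0 CPM, log2 ratio -0.24) and Cthrc1 (193 and 122 CPM, -0.67) within 2-fold, and with equal weights they were at 0.44 and -0.26. Acta2 was still lower at the subclusters' own shares (159 and 28.5 CPM, -2.48) and within 2-fold with equal weights (109 and 94.98 CPM, -0.19). Tnc was at -2.10 with own shares and turned to 1.23 with equal weights (165 and 388 CPM), a value that rested on 1 knockout cell of subcluster 3, which held 185 of that group's 244 Tnc UMIs.

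Lrrc15 (11.9 against 1.24 CPM, log2 ratio -3.12) and Akr1c18 (36.7 against 1.94 CPM, -4.14) were lower also with equal weights. Tbx15 had 19 UMIs in these subclusters, 16 control and 3 knockout, which is under the minimum of 20, so no call was made. Postn was at 626 and 628 CPM and Thbs2 at 168 and 201 CPM (0.26). In knockout subcluster 3, 1 cell held 112 of the 124 Postn UMIs. Without the highest Postn cell of each library, Postn was at 563 and 457 CPM (-0.30) with equal weights. Fap was higher at the subclusters' own shares (30.5 and 123 CPM) and just under the limit with equal weights (0.97). With equal weights and without each gene's highest cell among these subclusters in each library, Tnc was at 152 and 106 CPM (-0.53), Acta2 at 100.1 and 64.4 CPM (-0.63) and Fap at 1.03, and Lrrc15 (-2.85) and Akr1c18 (-4.54) stayed past 2-fold. Both still rested on few control cells, as given for Lrrc15 in subcluster 1 below. For Akr1c18, 1 cell held 82 of the 119 control UMIs left in subcluster 3, and 1 held 29 of 32 in subcluster 5. Without the 3 highest cells of each library, Akr1c18 was at 7.07 against 0 CPM in subcluster 3. There the 0 UMIs of all 19 knockout cells allow up to 21.2 CPM. In subcluster 5 it was then at 0 against 4.88 CPM, the other way.

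**Figure D4:**
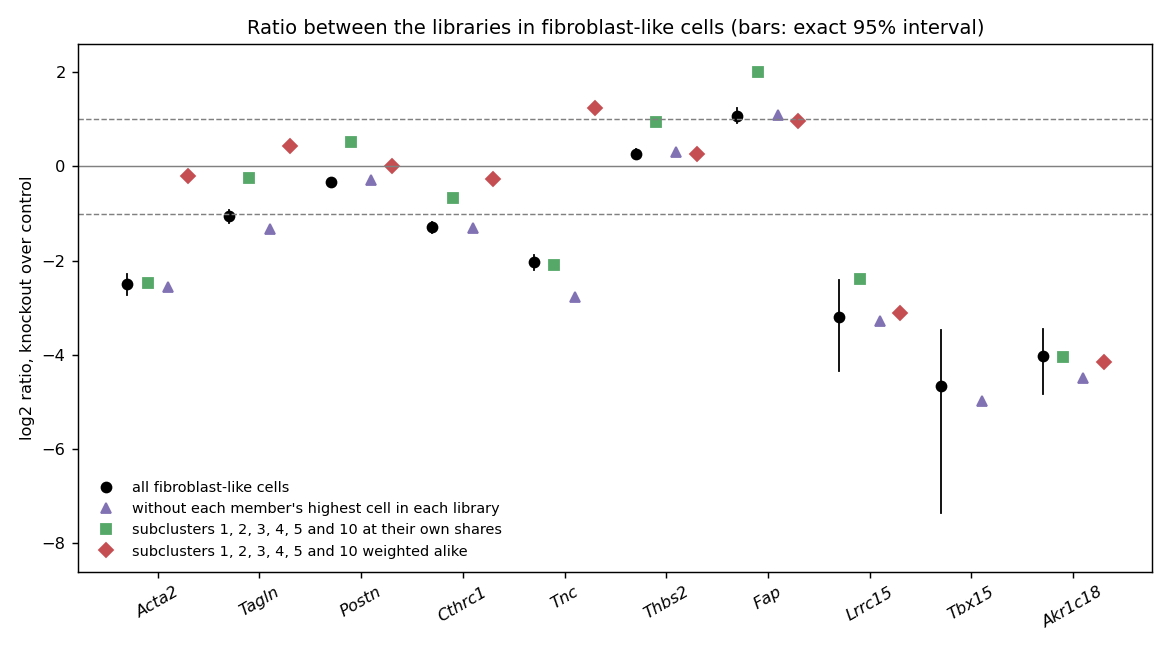
Log2 ratio of knockout over control in fibroblast-like cells for each of the 10 genes: over all cells (circles, bars are exact 95% intervals), without each gene's highest cell (triangles), and over the 6 subclusters with at least 10 cells in each library, at their own shares (squares) and weighted alike (diamonds). Dashed lines mark 2-fold. Lrrc15 and Akr1c18 stay below -1 in all 4 versions, Tagln and Cthrc1 are within 2-fold in the squares and diamonds and Acta2 in the diamonds, and Tbx15 has neither because 19 UMIs were left.

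Within subcluster 1, the largest over both libraries, the members did not differ as a block. Its 91 control and 248 knockout cells had Lrrc15 at 31.9 (22.8 to 43.4) and 3.81 (1.90 to 6.82) CPM, Acta2 at 108 (90.2 to 127) and 39.5 (32.6 to 47.5) CPM, and Tnc at 190 (167 to 216) and 38.1 (31.3 to 45.9) CPM. Postn was at 1047 and 505 CPM, just past 2-fold. Few control cells carried these values: 3 of the 91 held 37 of the 40 Lrrc15 UMIs, and 2 held 102 of the 135 Acta2 UMIs, while 19.8% of control and 17.3% of knockout cells had an Acta2 UMI. Without the 3 cells highest in each gene in each library, Lrrc15 was at 2.53 and 1.75 CPM, Acta2 at 21.5 and 28.1 CPM, Tnc at 64.7 and 27.8 CPM and Postn at 671 and 470.0 CPM. The Tnc values alone of these 4 were then still more than 2-fold apart, and the Lrrc15 values rested on 3 and 5 UMIs. Thbs2 was level at 412 and 411 CPM, Tagln was at 181 and 154 CPM and Cthrc1 at 308 and 210 CPM, while Fap was higher in the knockout cells, at 50.2 (38.6 to 64.2) and 107 (95.2 to 119) CPM. Fap was also higher in the knockout cells of subclusters 2 (95.5 and 190 CPM), 4 (8.73 and 44.0 CPM) and 5 (63.5 and 125 CPM). Without subcluster 6, the control group richest in Fap, its log2 ratio over all fibroblast-like cells was 2.13.

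A few control cells stood out for Lrrc15. At least 5 Lrrc15 UMIs were counted in 9 of the 572 control fibroblast-like cells, spread over subclusters 1, 6, 10 and 11, and they held 73 of the 130 Lrrc15 UMIs. The same 9 cells held 927 of the 6178 control fibroblast Postn UMIs, at 5430 CPM against 670.2 CPM in the other cells, and 20.3% of Thbs2, at 1857 against 159 CPM. Their Cthrc1 level was 1177 against 279 CPM and their Tnc level 709 against 240 CPM. Fap was at 193 against 54.9 CPM, and Tbx15 at 41.0 against 14.4 CPM on 7 UMIs in these cells. Acta2 was at 152 against 166 CPM. Tagln was at 275 against 165 CPM, on 47 UMIs in 3 of the 9 cells. No Akr1c18 UMI was found in them. The cells were picked on Lrrc15 after its values were seen, so these are descriptions of 9 cells.

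In mesothelial-like cells, the lining cells of the peritoneum, 1 of the 10 genes had at least 20 UMIs and none was called. Of the 5765 genes tested there, 6.59% were lower and 7.2% higher. Acta2 was at 43.6 CPM (27.7 to 65.5) in the control and 51.1 CPM (28.6 to 84.2) in the knockout library, from 23 and 15 UMIs, with overlapping intervals. Tnc had 17 UMIs in 4 control cells, the highest of which held 9 and 6, and 0 in the knockout library. With a floor of 3 counts in the class in place of the 0, it was 3.16-fold lower. The upper 95% limit of the ratio was 0.435. Postn had 0 control and 18 knockout UMIs, 17 of them in 1 cell. Fap had 3 and 6 UMIs, Cthrc1 3 and 1, Thbs2 0 and 3, Tagln 0 and 2, Tbx15 1 and 0, and Lrrc15 and Akr1c18 had none, so their differences were not detectable at this depth.

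Pericyte/smooth muscle-like cells had the highest Acta2 and Tagln levels of any class, and these were close in both libraries. Acta2 was at 4188 CPM (4001 to 4382) in the 53 control cells and 3799 CPM (3323 to 4325) in the 9 knockout cells, a ratio of 0.907 (0.787 to 1.04). Tagln was at 2999 CPM (2841 to 3164) and 3368 CPM (2921 to 3864), a ratio of 1.12 (0.964 to 1.30). Most knockout UMIs came from 5 cells, which held 93.4% of Acta2, and without the highest cell of each library the log2 ratio of Acta2 was -0.63 against -0.14 with it. There 6 of the 10 genes had enough UMIs, and 2 were lower by the rule that called 6.72% of the 4554 genes tested lower and 11.1% higher. Postn had 318 control UMIs (708 CPM, 632 to 790) against 5 in the knockout library (83.0 CPM, 26.9 to 194), for a ratio of 0.117 (0.0378 to 0.276). Tnc had 51 UMIs (114 CPM) against 0, which is 2.28-fold lower with the same floor of 3 counts in place of the 0. The upper 95% limit of its ratio was 0.559. Thbs2 had 21 and 2 UMIs, Fap 27 and 3, Tbx15 11 and 0 and Lrrc15 4 and 0, with ratio intervals that all included 1, and no Cthrc1 or Akr1c18 UMI was seen in either library. In the control library 4 members had levels in these cells that overlapped those of fibroblast-like cells: Tbx15 at 24.5 CPM (12.2 to 43.8), Lrrc15 at 8.91 CPM (2.43 to 22.8), Postn at 708 CPM and Fap at 60.1 CPM (39.6 to 87.5). Cthrc1, Tnc and Thbs2 were highest in fibroblast-like cells, with intervals clear of the other control classes. So was Akr1c18, except against the 9 control B-like cells, which had 0 UMIs and a floor of 84.3 CPM.

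Outside the mesenchyme, Tbx15 and Tnc were found in the cancer cells. Epithelial/tumour-like cells held 1452 control and 816 knockout Tbx15 UMIs, in 1213 and 668 cells, at 9.66 CPM (9.17 to 10.2) and 8.25 CPM (7.70 to 8.84). That level was similar in both libraries and above the 0.449 CPM of knockout fibroblast-like cells. Tnc was at 18.7 CPM (18.0 to 19.4) and 10.5 CPM (9.83 to 11.1) in the same cells. Acta2 was at 3.74 and 1.29 CPM, Fap at 1.07 and 1.14 CPM and Postn at 0.939 and 0.566 CPM there, and Tagln, Cthrc1, Thbs2, Lrrc15 and Akr1c18 were each lower still. Neutrophil-like cells had 21 and 29 Acta2 UMIs, 16.5 CPM (10.2 to 25.2) and 50.7 CPM (33.9 to 72.7), and 21 and 13 Fap UMIs, 16.5 and 22.7 CPM. Endothelial-like cells had 25 and 24 Tagln UMIs, each from at most 4 cells. Acinar-like cells of the knockout library had 33 Tbx15 and 36 Tnc UMIs, 7.57 and 8.26 CPM, and T/NK-like cells of that library had 64 Tnc UMIs, 8.30 CPM.

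Close relatives of the members did not share their differences throughout. In fibroblast-like cells the cytoplasmic actins were within 2-fold, Actb at a log2 ratio of -0.12 and Actg1 at -0.81, while Acta2 was at -2.50. Of the transgelin and calponin genes, Tagln2 was lower (628 and 217 CPM, -1.53), and Cnn2 (0.01) and Cnn3 (-0.40) were within 2-fold. Tgfbi, the paralog of Postn, was lower (117 and 20.6 CPM, -2.49). Among tenascins Tnn was lower (113 and 8 UMIs, -3.40) and Tnxb was at 0.50. Thbs1 (-0.11), Thbs3 (-0.25) and Thbs4 (0.72) were within 2-fold like Thbs2, and Comp, of the same family, was higher (3.75 and 27.8 CPM, 2.85). Dpp4, the nearest relative of Fap, was higher as Fap was (87.2 and 187 CPM, 1.10), and Dpp8 (0.19), Dpp9 (-0.14) and Prep (-0.34) were within 2-fold. Akr1c14 was lower on 28 and 5 UMIs (-2.01), Akr1c13 was at -0.27, and Tbx18, the nearest relative of Tbx15, was lower (76 and 20 UMIs, -1.61). Akr1c genes lie in a family of similar copies, so reads that match several of them could be split or dropped.

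The contractile and matrix lists around the members were mostly within 2-fold. The counts of these and the next lists stand beside 6.04% lower and 8.39% higher over all 13053 genes, and nothing is called particular to a list from them. Of 12 measured contractile genes under serum response factor (17 listed), 1 was lower in knockout fibroblast-like cells, the tropomyosin gene Tpm2 (-1.12), and none was higher, with a median log2 ratio of -0.04 against 0.13 for all genes. Flna, an actin crosslinker, was at -0.65, and Myh11 and Mylk, smooth muscle myosin and its kinase, were at 0.86 and 0.63. Of 21 measured myofibroblast matrix genes 1 was lower, Inhba, which encodes the activin A subunit (-1.93), and 3 were higher, with a median of 0.07. The collagen crosslinker Loxl2 was at -0.87, and Comp (2.85) and Itgbl1 (1.11) were among the higher. Of 17 transforming growth factor beta response genes 4 were lower and none higher, with a median of -0.15. Timp1, a metalloproteinase inhibitor (-3.00), and Tgfbi had the lowest ratios, and the ligand Tgfb3 (0.88) and receptor Tgfbr1 (0.87) the highest.

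The lists for other fibroblast states had more calls. All but 1 of 9 antigen-presenting fibroblast genes were lower, with a median of -1.35, led by Slpi (604 and 5.68 CPM, -6.70) and Saa3 (2341 and 117 CPM, -4.33). H2-Eb1, a class II chain, was at -1.14 and the mesothelial gene Upk3b at 0.89. Slpi and Saa3 are also leading genes of subcluster 3, which had 169 control and 19 knockout cells. Of 19 inflammatory genes 5 were lower, among them Saa3 and the chemokine gene Ccl7 (-2.57), and 3 were higher, among them the chemokine gene Cxcl2 (2.99) and Pi16, a marker of resident fibroblasts (1.29). Of 20 measured mesenchymal transcription factor genes 4 were lower, among them Tbx18 and Shox2 (-1.17), and 2 were higher, Tcf21 (1.75) and Zeb1 (1.32). Of 5 measured steroid genes Star, which carries cholesterol into mitochondria, was lower (-1.76) and Hsd11b1, which activates glucocorticoids, was higher (1.34), with Nr3c1 at 0.85 and Srd5a1 at -0.33.

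The genes with the most similar pattern were read over 16 sums of a cell class in a library, among 13053 genes. For Acta2 these were Vash2, Sox6 and 2810032G03Rik (Pearson r 0.965 for the first), for Tagln Mustn1, Id4 and Khdrbs3 (0.994), and for Postn Meg3, Rian and Col5a2 (0.998). The next were Enpp3, Gdf6 and Fndc1 for Cthrc1 (0.994), Enpp2, Il1r1 and P3h1 for Tnc (0.963), and Serpina3m, Gm12122 and 3010001F23Rik for Thbs2 (0.998). Fap was most like Steap4, Pde1a and Crispld2 (0.960), Lrrc15 like Nxph1, 2010001K21Rik and Ano4 (0.992), Tbx15 like Shox2, Hoxc5 and Cdh2 (0.910) and Akr1c18 like C1rb, Tnn and Adh7 (0.9998). These values describe sums that share libraries and depth, and for Akr1c18 they rest on the control fibroblast-like sum, the one far above the rest. A high r can rest on few sums for other members too. Cthrc1 was at 298 and 122 CPM in the control and knockout fibroblast-like sums, against 0.286 and 0.192 CPM in the epithelial/tumour-like ones. Lrrc15 reached at most 16.2 CPM in any sum, close to the 10 CPM added before the logarithm.

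Promoter windows were on hand for 6 of the 10 members in the RefSeq table. Tnc is shown as a member whose UMIs sat in subclusters 3 and 11, and Lrrc15 and Akr1c18 as members that were lower also with subclusters weighted alike. Each is the stretch just before the first exon base (GRCm38.p6, all minus strand, chr4:64047016-64047265, chr16:30283257-30283504 and chr13:4150655-4150896), with capitals for TATA boxes (TATAAA) and AP-1 sites (TGANTCA), searched on both strands:
Tnc: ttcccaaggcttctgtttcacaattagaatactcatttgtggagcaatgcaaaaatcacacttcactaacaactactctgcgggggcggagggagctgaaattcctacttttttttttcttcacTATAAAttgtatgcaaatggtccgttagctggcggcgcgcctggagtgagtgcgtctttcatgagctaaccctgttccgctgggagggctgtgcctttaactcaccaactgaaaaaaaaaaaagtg
Lrrc15: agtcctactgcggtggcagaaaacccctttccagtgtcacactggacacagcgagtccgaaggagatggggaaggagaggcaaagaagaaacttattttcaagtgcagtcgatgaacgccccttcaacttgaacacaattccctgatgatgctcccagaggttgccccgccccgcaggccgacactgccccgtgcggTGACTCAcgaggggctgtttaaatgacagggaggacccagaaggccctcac
Akr1c18: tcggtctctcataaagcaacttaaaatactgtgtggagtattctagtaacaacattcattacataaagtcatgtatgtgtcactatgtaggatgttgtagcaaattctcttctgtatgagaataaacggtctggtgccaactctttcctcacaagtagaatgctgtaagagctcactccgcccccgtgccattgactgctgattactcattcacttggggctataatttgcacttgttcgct
The Lrrc15 AP-1 match begins 53 bases before the RefSeq start, and 6.75% of all windows hold one. The TATAAA of Tnc begins 126 bases before its start, and 12.4% of windows hold that string. The SMAD element CAGACA, found in 17.1% of windows, was present once in the Acta2 window, once in a second window of Tnc that is not printed, 71 bases before its start, and as a pair, 67 and 44 bases before the start, in that of Thbs2. No match to these 3 motifs was found in the Akr1c18 window, which says nothing of the factors that act there.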

How the data were processed

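Single-cell suspensions of pooled tumours (5 mice per genotype) were captured with the 10x 3′ v3.1 kit, and the authors deposited UMI counts per gene and barcode, made with Cell Ranger 8.0.0 per the file headers; the submitters' processing notes name Cell Ranger 3.1.3 and mm10. Each library is 1 sample, so no test was run. Cells under 500 genes or over 15% mitochondrial UMIs were dropped, and doublets called by Scrublet were removed (148 control, 341 knockout). Scanpy 1.11.5 clustered all cells on 2000 variable genes that excluded the 10 members (30 components, Leiden resolution 1), and the mesenchymal clusters were clustered again together at resolution 0.5 with 20 components. Clusters were named from fixed markers holding no member. The naming thresholds were set after the clusters were seen; an unnamed subcluster with keratin transcripts (61 control, 25 knockout cells) was kept out.

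UMIs were summed per class and library and scaled to CPM with exact Poisson 95% intervals; ratios have exact conditional intervals and shares Clopper-Pearson intervals, and the floor for 0 is 3 counts. A call is a log2 ratio of at least 1 in size, with a pseudocount of 1 UMI, among genes with at least 20 UMIs. All 10 members, their relatives with 20 UMIs, and of each list the 2 highest and 2 lowest genes were named, and for likeness the 3 genes with the highest r of log2(CPM + 10) over sums of at least 50 cells. The 10 members and the gene lists were chosen with earlier results of these data known. The ratio and its interval were tried on simulated Poisson sums, the model that the interval assumes. Those sums lack the concentration of UMIs in few cells described above, so the trial does not cover it. Annotation is GENCODE M21, in which 32158 of 32285 gene IDs were found.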

Additional observations from a re-analysis of the deposited data

How the results depend on the processing

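No paired analysis was possible because each genotype has 1 pooled library. In fibroblast-like cells 6 or 7 members were lower past 2-fold under 10 other settings of filter, clustering and scaling, against 7. Alternatives chosen after seeing the data gave 6 without subcluster 6, 7 without subcluster 3, 5 without both, 4 without subclusters 3, 6 and 11, and 7 without each gene's highest cell. Over the 6 subclusters that both libraries filled, 4 members were lower at the subclusters' own shares, an alternative also chosen after seeing the data, 2 with the subclusters weighted alike, and 2 also without each gene's highest cell. The pericyte/smooth muscle count of 2 became 1 with a pseudocount of 5 UMIs, and of the steroid genes 2 instead of 1 were lower with no minimum beyond 1 UMI. The mesothelial count was 0 throughout, with no gene testable in the 5 and 3 cells left without Epcam, Ptprc or keratin transcripts. Of 268 log2 ratios of single members under the alternatives, 199 lay within the main counting interval and 66 lay outside it. The other 3 changed the sign of a called ratio, all with subclusters weighted alike. Tnc (1.23) was then past 2-fold the other way, and Tagln (0.44, and 0.52 without its highest cell) was within 2-fold. Fap was not called higher with cells averaged, with median scaling, without subcluster 3, without cells holding epithelial or leukocyte transcripts or with subclusters weighted alike. The causes of these changes were not tested beyond the subclusters and cells named.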
